A study of Rattus norvegicus with 4 samples.

Results

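The microRNA miR-210 was followed in small RNA sequencing of cultured rat growth plate chondrocytes and of the matrix vesicles (MVs) that these cells release into their matrix. Its members were both rows of the count table that carry the gene Mir210, which were miR-210-3p and miR-210-5p, 2 of 774 rows. The rule takes them by gene name and uses no count. The cells came from rib cages of male Sprague Dawley rats, where the costochondral cartilage forms the growth plate of each rib, and were at passage 4 and confluent when harvested. The 4 groups were resting zone cells (RC-cells), the vesicles of those cells (RC-MVs), growth zone cells (GC-cells) and the vesicles of those cells (GC-MVs), where the resting zone holds the less mature and the growth zone the more mature chondrocytes. All were cultured with ascorbic acid in medium with fetal bovine serum, which according to the study's methods had been depleted of bovine exosomes by ultracentrifugation, and no treatment is named for any group. The vesicles were pelleted by sequential centrifugation from the cell layer after trypsin digestion. The age of the rats, the oxygen tension of the cultures and the number of rats behind a culture are not given in the sources used here.

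Each group had 1 library, so that no difference had a replicate check and no p-value was computed. The directions and near equalities given here rest on 1 sequencing library a group, and measurements of miR-210 by another method were not analysed here. A PCR array reported by the study lists this miRNA as lower in vesicles than in cells of the resting zone. That array also lists it as lower in vesicles of the resting zone than in those of the growth zone. Its direction between vesicles and cells of the resting zone is opposite to that of the sequencing. The reason was not tested. The cell libraries held 6517329 miRNA reads (RC) and 7414467 (GC), the vesicle libraries 1108821 (RC) and 982543 (GC), and the deepest was 7.55 times the shallowest. Each count was expressed as a percent of all miRNA reads of its library. Intervals at the 95% level, which cover counting error alone, are Wilson intervals for percents of a library and exact Clopper-Pearson intervals for ratios of counts. For a ratio of ratios, including folds between libraries relative to another miRNA, they come from the Poisson error of the counts on the log scale. Removal of PCR copies is not named in the sources used here, so that copies of 1 molecule may have been counted as separate reads. Of 6 cartilage markers, miR-140-3p was the most abundant, at between 0.383% and 0.951% of the miRNA reads, while both arms of miR-675 had at most 1 read in any library.

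miRNAs are short RNAs cut from a hairpin precursor, and their seed, the bases near the 5′ end, pairs with target mRNAs and lowers their translation or stability. miR-210 is best known as the miRNA that hypoxia-inducible factor 1 switches on when oxygen is low, and its established targets include Iscu, a scaffold for building iron-sulphur clusters in mitochondria, and Efna3, the ephrin-A3 ligand. Growth plate cartilage has no blood vessels of its own, and its chondrocytes depend on hypoxia-inducible factor 1 to survive. mRNAs and oxygen were not measured in these libraries.

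The hairpin is shown because it carries both members and sets how reads at this locus could be assigned. According to RefSeq, in the GRCr8 assembly, Mir210 lies on the minus strand at chr1:205755923-205756032, with miR-210-3p at chr1:205755946-205755967 and miR-210-5p at chr1:205755984-205756005. The reads themselves were aligned to the Rnor_6.0 build, whose positions were not used here. The gene lies within the long noncoding RNA gene LOC102553043, which is on the same strand, and between the protein-coding genes Rassf7 and Phrf1. In the hairpin, 110 bases long, capitals mark the 5p arm and then the 3p arm, and 16 bases separate them. In the mature miRNAs, capitals mark the seed, bases 2 to 8.
Mir210 hairpin: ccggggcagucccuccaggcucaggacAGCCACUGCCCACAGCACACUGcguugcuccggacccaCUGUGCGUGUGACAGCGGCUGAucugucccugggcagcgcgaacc
miR-210-3p: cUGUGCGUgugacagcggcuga
miR-210-5p: aGCCACUGcccacagcacacug

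Neither seed was shared with another name among the 693 mature rat miRNAs of the RefSeq table, so that miR-210 had no seed family there. Both arms had a GC content of 63.6%. The median over the 660 of 740 names of the count table that had a sequence was 47.8%, and 88.3% of these names were lower than miR-210-3p. The mature 3p arm held 2 CpG dinucleotides, and 10.9% of the matched names held at least that many. In the minimum free energy fold predicted by RNAfold, 16 of the 22 bases of each arm paired with the other arm.

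A further annotated miRNA, miR-3574, lies on the plus strand opposite miR-210-3p, at the same positions. It is shown because its sequence is the exact reverse complement of miR-210-3p over all 22 bases, and it was chosen after its values were seen.
miR-3574: ucagccgcugucacacgcacag
It had 0 reads in each of the 4 libraries, which allows a share of up to 4.60e-05% of the miRNA reads in RC-cells, 4.05e-05% in GC-cells, 0.000271% in RC-MVs and 0.000305% in GC-MVs, taking 3 reads as the limit. Reads at this position were therefore counted for the miR-210 strand and not for the strand opposite it. Whether the counting used strand is not given in the sources used here.

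miR-210-3p was found in all 4 libraries at a moderate level, with its higher shares in the vesicles. In RC-cells it had 1363 reads, or 0.0209% of the miRNA reads (95% interval from 0.0198% to 0.0221%). In RC-MVs it had 605 reads, or 0.0546% (0.0504% to 0.0591%). In GC-cells it had 1829 reads, or 0.0247% (0.0236% to 0.0258%). In GC-MVs it had 531 reads, or 0.0540% (0.0496% to 0.0588%). Both vesicle libraries were therefore above both cell libraries, and the intervals of vesicles and cells did not overlap. The order of the levels was RC-MVs, GC-MVs, GC-cells and RC-cells, in which the intervals of the 2 vesicle libraries overlapped and those of the 2 cell libraries did not.

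**Figure D1:**
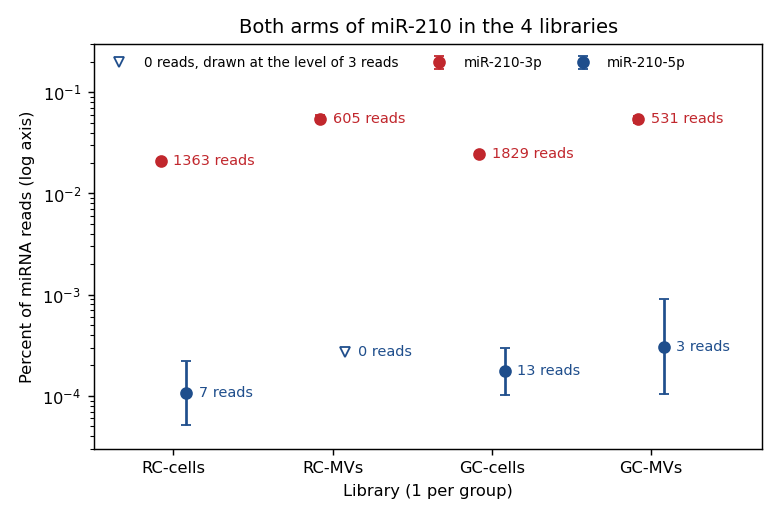
Percent of all miRNA reads (log axis) of miR-210-3p (red) and miR-210-5p (blue) in each library, with 95% Wilson intervals and the number of reads. The 3p arm was at 0.0546% and 0.0540% in the vesicles and at 0.0209% and 0.0247% in the cells, and the 5p arm had at most 13 reads in any library.

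By reads, miR-210-3p ranked 126th of the 496 miRNAs detected in RC-cells and 83rd of 431 in RC-MVs. It ranked 110th of 501 in GC-cells, tied with miR-30b-5p, and 76th of 431 in GC-MVs. Its level was 10.7 times the median of the detected miRNAs in RC-cells, 15.2 times in GC-cells, 14.8 times in RC-MVs and 18.3 times in GC-MVs. The miRNAs ranked around it differed from library to library. In RC-cells, miR-543-3p stood just above it with 1483 reads and miR-22-5p just below with 1293 reads. In RC-MVs, miR-149-5p had 629 reads and let-7e-5p had 604. In GC-cells, miR-93-5p had 1848 reads and miR-214-5p had 1744, whereas in GC-MVs miR-101b-3p had 598 reads and the star strand of miR-434 had 524. Between 7 and 11 other miRNAs per library had an interval that overlapped its own, so that its rank was known to about that many places.

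Whether miR-210 differed between vesicles and the cells that made them was compared first in the resting zone. The share of miR-210-3p in RC-MVs was 2.61 times its share in RC-cells (95% interval from 2.37 to 2.87), and the whole interval lay beyond 2-fold. Of the 414 miRNAs that had 1 read or more in RC-MVs and in RC-cells, 33.6% were at least 2-fold higher in RC-MVs, so that a difference of this kind was common. Among these miRNAs, 110 had a larger ratio than miR-210-3p and 303 a smaller one. On the log2 scale its ratio lay 1.30 above their median, a distance that does not depend on the scaling. When 100 reads or more were required on both sides, 36 of 145 other miRNAs had a larger ratio.

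In the growth zone, the share of miR-210-3p in GC-MVs was 2.19 times its share in GC-cells (95% interval from 1.99 to 2.41), so that the lower end of the interval was just under 2-fold. Of 417 miRNAs, 32.1% were at least 2-fold higher in GC-MVs, and 119 had a larger ratio than miR-210-3p, which lay 1.00 above the median on the log2 scale. This call depended on the scaling, since the ratio was 1.88 with TMM normalization, which moved all log2 ratios of this comparison by -0.22, and 1.98 with DESeq2 size factors, both under 2-fold. In the resting zone the ratio stayed above 2-fold under each scaling, between 2.25 and 2.61. The share was higher in vesicles than in cells under all 4 scalings in both zones.

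**Figure D2:**
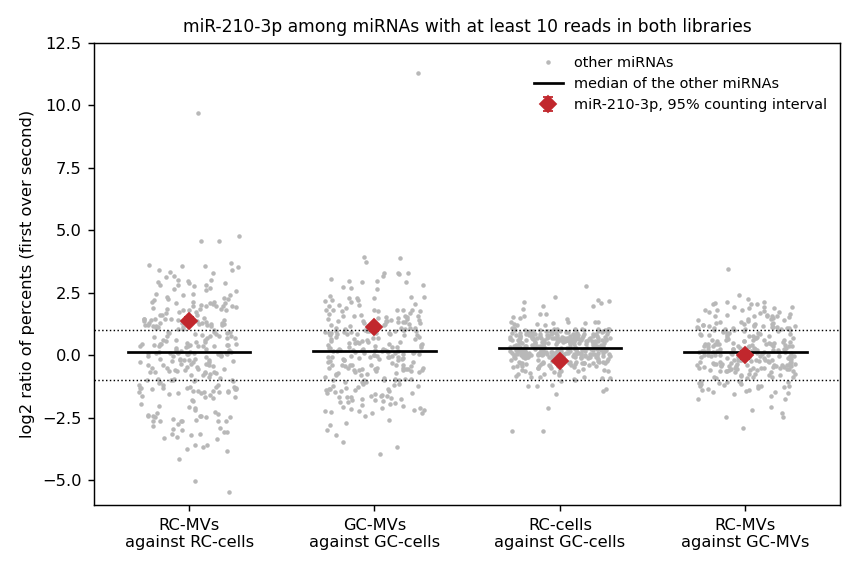
The log2 ratio of percents of miR-210-3p (red diamonds, with 95% counting intervals) in 4 comparisons, over the other miRNAs counted 10 times or more on both sides (grey points) and their median (black lines). Dotted lines mark 2-fold, and miR-210-3p lay above the upper line for vesicles against cells in both zones and between the lines for the zones.

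The vesicle to cell ratio of the resting zone was 1.19 times that of the growth zone (95% interval from 1.04 to 1.36, from the Poisson error of the 4 counts). The direction of this small difference was not kept under every scaling, as it was 1.31 with TMM normalization and 1.28 with size factors, but 0.96 when the totals were taken without the abundant miR-22-3p, miR-143-3p and miR-21-5p. Over the 262 miRNAs that reached 10 reads in each of the 4 libraries, 76.0% had a ratio of ratios between 0.5 and 2, and 55 lay closer to 1 than miR-210-3p. As a percent of all miRNA reads, miR-210-3p was 1 of 72 miRNAs, or 27.5%, that were at least 2-fold higher in vesicles of both zones. With TMM normalization or size factors it was under 2-fold in the growth zone.

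A pair of abundant chondrocyte miRNAs gave a comparison that does not depend on the totals. miR-140-3p comes from the cartilage miRNA gene within Wwp2, and for each 1000 of its reads there were 54.6 reads of miR-210-3p in RC-cells (95% interval from 51.7 to 57.7), 48.8 in GC-cells (46.5 to 51.1), 57.4 in RC-MVs (52.8 to 62.3) and 68.1 in GC-MVs (62.2 to 74.4). Relative to miR-140-3p, miR-210-3p was thus 1.05-fold higher in vesicles of the resting zone than in its cells, with an interval from 0.952 to 1.16 that included 1, and 1.40-fold higher in GC-MVs than in GC-cells (1.26 to 1.54). For each 1000 reads of miR-21-5p, the most abundant miRNA of the cells, there were 0.490 reads of miR-210-3p in RC-cells, 0.589 in GC-cells, 3.17 in RC-MVs and 3.02 in GC-MVs. Relative to miR-21-5p, miR-210-3p was 6.47-fold higher in the vesicles than in the cells of the resting zone (5.88 to 7.13) and 5.13-fold higher in those of the growth zone (4.66 to 5.65). The size of the vesicle to cell ratio of miR-210-3p therefore depended on what it was measured against. It was about equal with miR-140-3p in the resting zone and several-fold with miR-21-5p. Other cartilage markers had other vesicle to cell ratios and would give other sizes. In the resting zone the ratio was 2.48 for miR-140-3p, 0.119 for miR-140-5p, 1.72 for miR-455-3p and 0.377 for miR-455-5p. In the growth zone these were 1.57, 0.267, 1.45 and 0.389.

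miRNAs that mark other tissues also differed between vesicles and cells. Of 8 blood cell markers, 7 were found by name. Their summed level was 0.00126% of miRNA reads in RC-cells, 0.00123% in GC-cells, 0.0887% in RC-MVs and 0.190% in GC-MVs, and all 7 had reads in both vesicle libraries. The liver miRNA miR-122-5p was at 0.000491% in RC-cells, 0.000459% in GC-cells, 0.401% in RC-MVs and 1.14% in GC-MVs. The 4 skeletal muscle markers summed to 0.000368% in RC-cells, 0.000715% in GC-cells, 0.00171% in RC-MVs and 0.00733% in GC-MVs, from 24, 53, 19 and 72 reads, with 2 of them at 0 in RC-cells and 1 in RC-MVs. All 4 were at least 2-fold higher in GC-MVs than in GC-cells, as were 32.1% of all miRNAs. The 2 endothelial markers summed to 0.0266% in RC-cells, 0.0223% in GC-cells, 0.0158% in RC-MVs and 0.0640% in GC-MVs. Each of the 7 blood markers had a larger ratio of RC-MVs to RC-cells than miR-210-3p, with the lowest at 3.29. The part of such RNA in the reads of miR-210-3p was not tested.

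The zones were compared next, in cells and then in vesicles. In cells, the share of miR-210-3p was 1.18-fold higher in GC-cells than in RC-cells (95% interval from 1.10 to 1.27), which was within 2-fold but beyond counting error. This direction held for percents and for the 3 other scalings but turned when miR-140-3p was the reference. For each read of miR-140-3p there was 1.12 times as much miR-210-3p in RC-cells as in GC-cells (1.04 to 1.20). The ratio of RC-cells to GC-cells was 0.757 for miR-140-3p, 0.878 for miR-140-5p, 1.68 for miR-455-3p and 1.43 for miR-455-5p. miR-210-3p, at 0.848, was above the first of these cartilage markers alone. Relative to miR-21-5p the ratio of RC-cells to GC-cells was 0.832 (0.776 to 0.892). Of 474 miRNAs with reads in both cell libraries, 5.7% were at least 2-fold higher in GC-cells and 13.7% at least 2-fold higher in RC-cells. Of the miRNAs that differed, 70.7% were thus higher in RC-cells, whereas the 3 other scalings gave between 37.6% and 40.7%. As percents, the median log2 ratio of RC-cells to GC-cells over these miRNAs was 0.24, but its sign turned with TMM normalization (-0.10), size factors (-0.12) and totals without the 3 abundant miRNAs (-0.08). The log2 ratio of miR-210-3p was -0.24 as a percent, and -0.48 relative to the median under any of these scalings. Of the 473 other miRNAs, 372 had a larger ratio of RC-cells to GC-cells than miR-210-3p, and among those with 100 reads or more on both sides 219 of 249 had a larger one. This place in the order does not depend on the scaling. With TMM normalization, which moved all log2 ratios of this comparison by -0.34, miR-210-3p was 1.49-fold higher in GC-cells.

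Between the 2 vesicle libraries, miR-210-3p did not differ beyond counting error as a percent of miRNA reads, with a ratio of RC-MVs to GC-MVs of 1.01 (95% interval from 0.897 to 1.14). Of 397 miRNAs, 39.3% differed by at least 2-fold in either direction, and 62.8% of these were higher in RC-MVs. This balance depended on the scaling. It was 51.0% with TMM normalization, and it turned with size factors (46.4%) and with totals without the 3 abundant miRNAs (24.5%). There were 213 miRNAs with a larger ratio and 183 with a smaller one, so that miR-210-3p was near the middle of this comparison, with a log2 ratio of -0.13 relative to the median. The ratio was 0.88 with TMM normalization, 0.85 with size factors and 0.65 with totals without the 3 abundant miRNAs, so that the near equality held for percents of all miRNA reads and not for every scaling. Relative to miR-140-3p the ratio of RC-MVs to GC-MVs was 0.843 (0.747 to 0.951), an interval that did not include 1, and relative to miR-21-5p it was 1.05 (0.934 to 1.18).

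**Figure D3:**
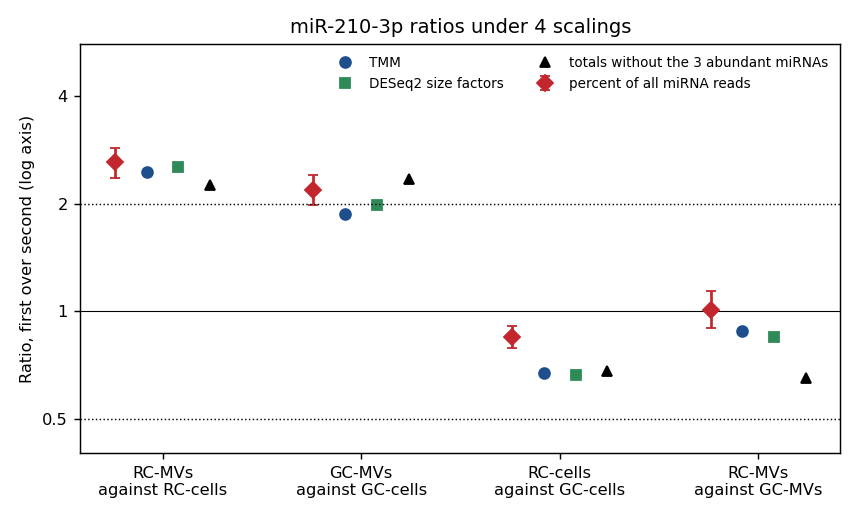
Ratio of miR-210-3p in each comparison (log axis) as a percent of all miRNA reads (red, with 95% counting intervals), with TMM normalization (blue), with DESeq2 size factors (green) and with totals without miR-22-3p, miR-143-3p and miR-21-5p (black). Vesicles were above cells under every scaling, and in the growth zone the ratio fell from 2.19 to 1.88 and 1.98, below the dotted line at 2-fold.

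The 5p arm of Mir210 was close to the limit of detection. miR-210-5p had 7 reads in RC-cells, 13 in GC-cells, 0 in RC-MVs and 3 in GC-MVs. These counts correspond to 0.000107% of the miRNA reads in RC-cells (95% interval from 5.20e-05% to 0.000222%), 0.000175% in GC-cells (0.000102% to 0.000300%) and 0.000305% in GC-MVs (0.000104% to 0.000898%). In RC-MVs, the 0 reads allow a share of up to 0.000271%, which is above the level in RC-cells, so that a lower level in RC-MVs was not detectable at this depth. The ratio of GC-MVs to GC-cells was 1.74 with an interval from 0.318 to 6.34, and the level was 1.63-fold higher in GC-cells than in RC-cells with an interval from 0.605 to 4.83. Both intervals included 1. No fold was given for RC-MVs with 0 reads, because the level in RC-cells was under that of 3 reads in RC-MVs and GC-MVs had no more than 3 reads.

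Nearly all reads of the precursor came from the 3p arm. There were 194.7 reads of miR-210-3p for each read of miR-210-5p in RC-cells (95% interval from 94.2 to 485), 141 in GC-cells (82.1 to 265) and 177 in GC-MVs (60.2 to 861). In RC-MVs, with 0 reads of the 5p arm, the lower end of the same interval was 163.5. The 5p arm made up 0.511% of the reads of Mir210 in RC-cells (exact interval from 0.206% to 1.05%), 0.706% in GC-cells (0.376% to 1.20%) and 0.562% in GC-MVs (0.116% to 1.63%). In RC-MVs it made up 0 of 605 reads, with an exact interval up to 0.608%, and 3 reads would be 0.496%. At the share seen in the cells of the same zone, 3.09 reads of the 5p arm would have been counted in RC-MVs and 3.77 in GC-MVs, and the arm ratio could not be told apart between vesicles and cells.

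The count table listed 1 mature miRNA of each arm for 312 precursors. Of these, 189 had at least 100 reads in RC-cells, and their less abundant arm held 2.17% of the reads at the median. In RC-cells 59 of the 188 others had a smaller share of the minor arm than Mir210, and in GC-cells 65 of 190 had. Mir210 was thus one-sided, but not unusually so for these libraries. The 3p arm was the more abundant one for 87 of the 189 precursors in RC-cells and for 88 of 191 in GC-cells. In RC-MVs, Mir210 was 1 of 22 precursors with 0 reads of the minor arm among 135, and in GC-MVs 51 of 126 others had a smaller share.

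**Figure D4:**
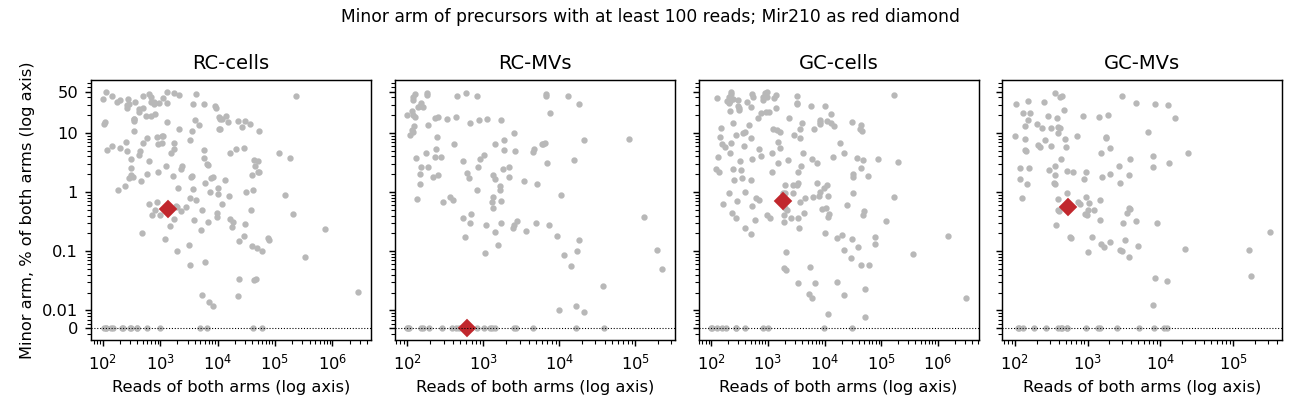
Share of the less abundant arm (log axis, with 0 drawn on the dotted line) against the reads of both arms (log axis) for precursors with at least 100 reads in each library, with Mir210 as a red diamond. The minor arm of Mir210 held 0.511% in RC-cells, 0.706% in GC-cells, 0% in RC-MVs and 0.562% in GC-MVs, below the median in each library.

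miR-210-3p was next set beside miRNAs that are known from other cells to rise at low oxygen. Of 19 such miRNAs, 18 were found by name, and all had reads in the 4 libraries. The other was miR-322-5p, for which the names miR-322 and miR-322* carry no arm label, so that it was left out. The ratios of these names were 0.141 and 0.369 for RC-MVs to RC-cells, and 0.337 and 0.540 for GC-MVs to GC-cells. For RC-cells to GC-cells they were 2.93 and 4.65. In the resting zone, 3 of the 18 were at least 2-fold higher in RC-MVs and 9 at least 2-fold lower, against 33.6% and 30.4% of all miRNAs. In the growth zone, 4 were at least 2-fold higher in GC-MVs and 8 at least 2-fold lower, against 32.1% and 25.2%. Their median ratio of vesicles to cells was 0.474 for the resting and 0.686 for the growth zone, beside medians of 1.06 and 1.10 over all miRNAs tested. Of the 18, 2 had a larger ratio of RC-MVs to RC-cells than miR-210-3p, against 110 of the 413 other miRNAs. For GC-MVs to GC-cells, 2 had a larger ratio, against 119 of 416.

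The members of this list that were at least 2-fold higher in RC-MVs were the 3 of the miR-181 family, which is known for tuning signals in lymphocytes. miR-181a-5p was 4.29-fold higher in the vesicles than in the cells of the resting zone and 3.44-fold higher in those of the growth zone. miR-181b-5p was 2.19-fold and 2.15-fold higher, and miR-181c-5p, with at most 50 reads in any library, 7.35-fold and 2.87-fold. At the other end stood miR-155-5p, a miRNA induced in inflammation, with 5 reads in RC-MVs beside 813 in RC-cells, a ratio of 0.0361. In the growth zone its ratio was 0.232, from 19 and 618 reads, and the lowest ratio of the list there was the 0.0604 of miR-195-5p (95% interval from 0.00152 to 0.343), with 1 read in GC-MVs. miR-26a-5p had vesicle to cell ratios of 0.102 (resting zone) and 0.218 (growth zone). miR-21-5p, which rises in many stressed and dividing cells, had ratios of 0.403 and 0.427. The list thus spread from far below to above miR-210-3p and did not share its vesicle to cell ratio.

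Between the cells of the 2 zones, 2 of the 18 were at least 2-fold higher in RC-cells and 0 at least 2-fold higher in GC-cells, against 13.7% and 5.7% of all miRNAs. Their median ratio of RC-cells to GC-cells was 1.32, beside 1.18 over all miRNAs. Of the 18, 15 had a larger ratio than the 0.848 of miR-210-3p, as had 372 of the 473 other miRNAs. Between the vesicles, 3 of the 18 were at least 2-fold higher in RC-MVs and 3 in GC-MVs, against 24.7% and 14.6%. Of 4 miRNAs known to fall at low oxygen, miR-20b-5p had at most 2 reads in any library. The other 3 were miR-17-5p, miR-20a-5p and miR-199a-5p, and all were at least 2-fold below RC-cells in RC-MVs, with ratios of 0.435, 0.0976 and 0.241, against 30.4% of all miRNAs. In the growth zone, miR-20a-5p and miR-199a-5p were at least 2-fold lower in GC-MVs, against 25.2% of all miRNAs, and miR-17-5p had a ratio of 1.20.

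**Figure D5:**
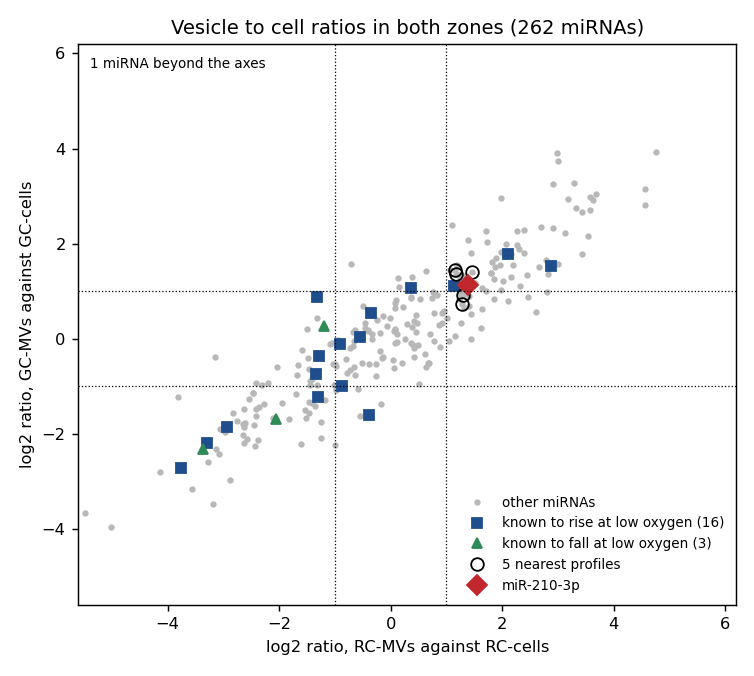
The log2 ratio of vesicles to cells in the growth zone against that in the resting zone for 262 miRNAs that reached 10 reads in each library, with miR-210-3p (red diamond), miRNAs known to rise (blue squares, 16) or fall (green triangles, 3) at low oxygen and the 5 miRNAs nearest in profile (open circles). As a percent of miRNA reads, miR-210-3p lay in the upper right, beyond 2-fold (dotted lines) in both zones. Most of the low oxygen miRNAs lay to the left of it.

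The miRNAs whose pattern over the 4 libraries was most like that of miR-210-3p were found by the distance between log2 percents, each centred on its own mean, among 261 other miRNAs with at least 10 reads in every library. The 5 nearest were miR-425-5p at a distance of 0.23, miR-423-3p at 0.26, miR-877 at 0.29, miR-1843b-5p at 0.30 and miR-193b-3p at 0.34, on the log2 scale, whereas the median distance was 1.72. The distance is the same under any scaling of the libraries. Only 4 libraries enter it, and 15 miRNAs lay within 0.5 of miR-210-3p, so that the order of the nearest has little weight.

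miR-423-3p and miR-425-5p are often used as reference miRNAs in PCR. miR-425-5p was at 0.0153% in RC-cells, 0.0148% in GC-cells, 0.0344% in RC-MVs and 0.0379% in GC-MVs, and its vesicle to cell ratio was 2.25 for the resting and 2.56 for the growth zone. For miR-423-3p these ratios were 2.73 and 2.64. miR-877, which is spliced from an intron rather than cut by Drosha, had ratios of 2.23 and 2.72, with between 22 and 61 reads per library. miR-1843b-5p and miR-193b-3p had ratios of 2.43 and 2.44 in the resting zone, and of 1.66 and 1.90 in the growth zone. These 5 were chosen for their likeness over the same libraries, so that ratios close to those of miR-210-3p follow from the choice. Between RC-cells and GC-cells, 4 of the 5 had a ratio between 1.00 and 1.08, and miR-1843b-5p, at 0.810, was the one that stood below miR-210-3p.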

How the data were processed

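The authors aligned small RNA reads of 4 libraries to the rat genome Rnor_6.0 with Bowtie2 and tabulated them with miARma-Seq, and they deposited the raw whole-number counts of each annotated miRNA. Adapter trimming, tool versions, strand use and the handling of reads with several matches are not given in the sources used here. Counts of the same mature name were added together, which turned 774 rows into 740 names, and Mir210 has 1 locus. Counts were given as percents of the miRNA reads of a library, the scaling that the study describes. A ratio of percents was called at 2-fold with at least 1 read in both libraries. With 1 library per group no test was made, and the 4 comparisons share libraries.

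The members and lists were chosen with earlier results of these data known. The miRNAs named were both arms of Mir210, the 5 nearest in profile, the neighbours in rank and members of fixed lists, among them the marker lists. Arm shares used precursors with at least 100 reads. Alternatives were edgeR's TMM, DESeq2's size factors, totals that leave out the abundant miR-22-3p, miR-143-3p and miR-21-5p, 0.5 added reads, a minimum of 10 reads and the whole interval beyond 2-fold. A minimum of 100 reads was added after seeing the data. The ratios and intervals were tested on simulated data. Sequences were taken from RefSeq (GRCr8), which held both arms. Python 3.11.15, numpy 2.4.6, pandas 2.3.3, scipy 1.17.1, matplotlib 3.10.9, RNAfold 2.7.2, R 4.3.3, edgeR 4.0.16 and DESeq2 1.42.0 were used.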

Additional observations from a re-analysis of the deposited data

How the results depend on the processing

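The labels number no replicates, and each group had 1 library. Vesicles were compared with the cells of their own zone, and a paired fit that takes the 2 zones as replicates was not run. With totals that leave out miR-22-3p, miR-143-3p and miR-21-5p, miR-210-3p was at 0.0477% in RC-cells, 0.0701% in GC-cells, 0.107% in RC-MVs and 0.165% in GC-MVs, its vesicle to cell ratio was 2.25 in the resting zone, its zone ratio was 0.680 between the cells (RC over GC) and 0.652 between the vesicles, and the resting zone ratio was 0.959 times that of the growth zone. With TMM normalization the ratio was 1.88 for GC-MVs against GC-cells, 0.672 between the cells and 0.878 between the vesicles. With size factors these were 1.98, 0.662 and 0.850. Other values under these settings, and those of miR-210-5p, stayed within their counting intervals, as did the ratios with 0.5 added reads. No alternative was run for miR-210-5p in RC-MVs, which had 0 reads.

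With the whole interval beyond 2-fold, the share of miRNAs that differed was 43.2% between RC-MVs and RC-cells, 32.1% between GC-MVs and GC-cells, 5.06% between the cells and 15.4% between the vesicles. With at least 10 reads it was 52.4% for GC-MVs against GC-cells and 13.2% between the cells. With at least 100 reads, chosen after seeing the data, it was 51.1%, 11.2% and, between the vesicles, 33.6%. Between the arms of Mir210, depth limits miR-210-5p the more, with at most 13 reads in any library.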
